A study of Homo sapiens with 6 samples.

Results

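The genes that make, move and attach GDP-fucose were examined together with the GMDS locus in HCT116 cells, a human colorectal carcinoma line, with and without knockdown of the long noncoding RNA GMDS-AS1. The members are 10 genes of the 60662 with a value, and they were chosen by symbol for their place in the pathway or at the locus. They are GMDS and its divergent noncoding neighbour GMDS-DT, GFUS, FPGT, FCSK, SLC35C1, FUT8, POFUT1, POFUT2 and FUT4. The HCT116 cells of both groups were stably transduced with lentivirus made from the pLKO.1 puro plasmid, which carried shCtrl in the control group (labelled WT for genotype) and GMDS-AS1 shRNA2 in the knockdown group (GMDS-AS1 KD). Each group has 3 libraries, numbered as biological replicates 1 to 3, and poly-A selected RNA was sequenced. Both groups are 1 cell line, the knockdown rests on 1 shRNA, and nothing in the labels says whether the replicates came from separate transductions, so p-values measure only the spread between these libraries. Levels are TPM, a unit scaled for transcript length and library total, which allows levels to be compared between genes.

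GDP-fucose is the sugar donor of every fucosylation reaction. In the de novo route, GMDS (GDP-mannose 4,6-dehydratase) converts GDP-mannose to a keto intermediate, which GFUS then turns into GDP-fucose, while the salvage route phosphorylates free fucose with FCSK and couples it to GTP with FPGT. SLC35C1 carries GDP-fucose into the Golgi, where FUT8 adds core fucose to N-glycans and FUT4 makes Lewis-type structures, whereas POFUT1 and POFUT2 work in the endoplasmic reticulum and put O-fucose on EGF repeats, as in Notch receptors, and on thrombospondin repeats. HCT116 cells are known to carry a deletion inside GMDS and to lack most fucosylated glycans unless fucose is supplied, and a TPM value per gene does not show which exons of GMDS were read.

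The shRNA was aimed at GMDS-DT. GMDS-DT is the symbol under which the deposited values list the transcript that the study calls GMDS-AS1, and the shRNA2 target was found in the sense direction in transcripts of GMDS-DT and of no other annotated gene. It lies on the plus strand of GRCh38 at chr6:2413207-2413227, in the last exon (exon 3) of 2 among the 16 GMDS-DT transcripts in GENCODE v29. Those same 2 transcripts also hold both of the study's qPCR primer sites for GMDS-AS1, which occur together in 4 of the 16, so 14 annotated GMDS-DT transcripts lack the target. Gene-level TPM sums over all of them. The target is shown with the guide strand that is complementary to it. Capitals mark the guide seed, which is bases 2 to 8, and the bases of the target that pair with it.
shRNA2 target: aagaccacagataGATGGTAa
shRNA2 guide: tTACCATCtatctgtggtctt

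GMDS and GMDS-DT start head to head. In GENCODE v29, GMDS occupies chr6:1623806-2245692 on the minus strand and GMDS-DT chr6:2245748-2482022 on the plus strand, with 55 bases between them. In RefSeq on GRCh38.p14 the most upstream start of GMDS is at 2245605 and the start of GMDS-DT at 2245753. These are 148 bases apart, so 1 window holds both. RefSeq promoters, 250 bases before to 50 after a start, were examined for 9 members, and GFUS was left out. The window of GMDS, chr6:2245556-2245855, is shown on the minus strand because the levels of both genes are compared below. Its position 103 is the start of GMDS-DT, transcribed leftwards, and its position 251 the start of GMDS. Capitals mark GC boxes (GGGCGG or its reverse complement CCGCCC) and the core letters of cAMP response elements (TGACG or CGTCA).
GMDS start region: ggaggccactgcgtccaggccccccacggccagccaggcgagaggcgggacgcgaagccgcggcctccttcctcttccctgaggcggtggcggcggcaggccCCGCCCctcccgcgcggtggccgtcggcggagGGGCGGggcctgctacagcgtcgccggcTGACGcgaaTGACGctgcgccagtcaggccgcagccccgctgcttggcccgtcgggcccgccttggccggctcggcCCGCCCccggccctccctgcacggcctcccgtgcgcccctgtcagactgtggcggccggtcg

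The window had a GC content of 79.3% and held 3 GC boxes and 2 such cores, with no CCAAT box (CCAAT or ATTGG) and no TATA box (TATAAA or TTTATA). Both strands were searched. The window of a further GMDS start in RefSeq, chr6:2175942-2176241, held none of these motifs at a GC content of 41.7%. GC boxes were also present in windows of FPGT (3), SLC35C1 (1 to 4), FUT8 (0 to 2), POFUT1 (6) and POFUT2 (6). The windows of FCSK and FUT4 held none, and that of FCSK held 1 TGACG core. Of all 35116 RefSeq promoters, 45.0% held a GC box, 24.6% a TGACG core, 34.6% a CCAAT box and 11.5% a TATA box. Matches of letters are a description and not binding sites.

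A value was obtained in each library for all members. Across genes, which do not count as replicates, Pearson's r lay between 0.985 and 0.987 within groups and between 0.956 and 0.958 for libraries of different groups. TPM keeps no read total. With fragments assumed to be 200 bases long, a single read per kb was put at 0.0485 to 0.0559 TPM. These are medians over values kept only within preset limits, so they partly reflect those limits and do not measure depth. All 6 epithelial markers were detected in every library, with EPCAM, an epithelial adhesion molecule, at 141 to 165 TPM. Their summed level was 9359 to 9813 TPM in shCtrl and 3638 to 3747 TPM in GMDS-AS1 KD. The keratins KRT8 and KRT18 made up most of that fall, with log2 fold changes of -1.46 and -1.83. By the test described below, 3 of the 6 were called lower and 1 higher, beside 25.9% and 28.5% of all genes tested. Among 6 markers of other cell types, the summed level was 32.5 to 33.1 TPM in shCtrl and 34.2 to 34.8 TPM in GMDS-AS1 KD. The leukocyte gene PTPRC was at 0 in all 6 libraries, and COL3A1 of fibroblasts and PECAM1 of endothelium did not exceed 0.06 and 0.4 TPM. COL1A1, the other collagen of the list, was at 12.76 to 14.42 TPM in shCtrl and 10.04 to 10.96 TPM in GMDS-AS1 KD. Of the 3 markers that could be tested, ACTA2 was called higher, DES lower and COL1A1 neither. The part of these markers in the results below was not tested.

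Fold changes compare GMDS-AS1 KD with shCtrl on the log2(scaled TPM + 1) scale, which understates the change of low genes, and were tested with limma and Benjamini-Hochberg adjustment over the 16901 genes that reached 0.5 TPM in 3 or more libraries. All 10 members passed this filter. GMDS, GMDS-DT and SLC35C1 were called lower (adjusted p under 0.05), which is 3 of 10 where 25.9% of all genes tested were called lower. GFUS and POFUT1 were called higher, 2 of 10 where the share of all genes was 28.5%. No member reached a 2-fold change with such a p, beside 4.24% of all genes in the lower direction and 2.93% in the higher one. The shares of members called thus did not stand out from those of all genes. The median log2 fold change of the members was -0.17 and that of all genes -0.00.

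The direction of small changes depended on the scaling between libraries. Trimmed mean (TMM) scaling, used unless another is named, raised the GMDS-AS1 KD values relative to shCtrl by 0.25 on the log2 scale. With TPM as deposited the median log2 fold change of all genes was -0.20, with 6814 genes lower and 2756 higher in place of 4372 and 4810. In that case, as with upper-quartile scaling, 5 members were called lower and none higher: GMDS, GMDS-DT, FPGT, SLC35C1 and FUT8. Upper-quartile scaling gave 5198 lower and 3974 higher genes and a median of -0.07.

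**Figure D1:**
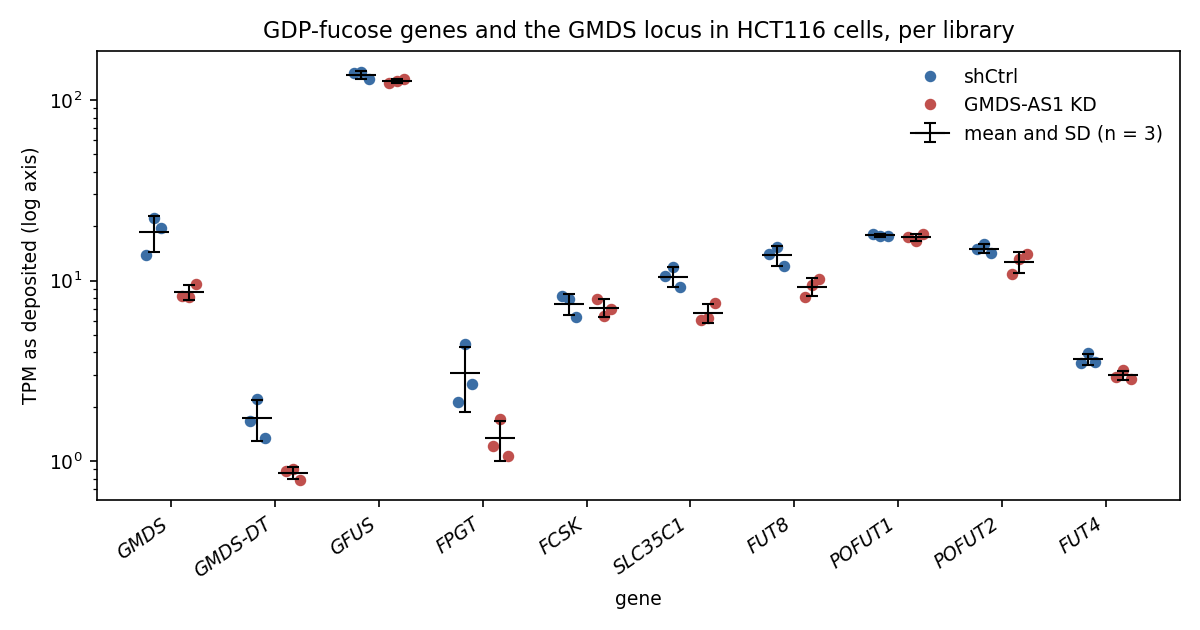
TPM as deposited (vertical log axis) of the 10 genes (horizontal axis) in the 3 shCtrl libraries (blue) and the 3 GMDS-AS1 KD libraries (red), with the mean and SD of each group in black. Before scaling, 8 of the 10 genes, all but FCSK and POFUT1, were lower in every GMDS-AS1 KD library than in any shCtrl library, as were 44.9% of all genes tested, and for GFUS (130.13 against 130.54 TPM) and POFUT2 (14.12 against 14.25 TPM) the groups all but touched.

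GMDS-DT, the targeted gene, was the least abundant member in both groups. It was listed at 1.66, 2.21 and 1.34 TPM in shCtrl and at 0.88, 0.91 and 0.79 TPM in GMDS-AS1 KD. All 3 knockdown libraries lay below all 3 controls, and the mean fell from 1.74 ± 0.44 to 0.86 ± 0.0624 TPM (SD, n = 3), a ratio of 0.495. Its log2 fold change was -0.41 ± 0.137 (SE), with a limma adjusted p of 0.0407. With the smaller pseudocount of 0.1 the log2 fold change was -0.68 and the limma adjusted p 0.0418. The call was lost when any library other than shCtrl replicate 3 was left out: the limma adjusted p was 0.0802 without shCtrl replicate 1, 0.117 without shCtrl replicate 2, and 0.0823, 0.0714 and 0.101 without GMDS-AS1 KD replicates 1, 2 and 3. It was also lost without the filter on low genes (limma adjusted p 0.149) and with a filter on a group mean of at least 1 TPM (0.063).

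GMDS, the dehydratase that opens the de novo route, fell. Its level was 13.91, 22.1 and 19.59 TPM in shCtrl against 8.25, 8.12 and 9.58 TPM in GMDS-AS1 KD, and the groups did not overlap. Replicate 1 was the lowest of the controls, while the 3 knockdown libraries were close to each other. The mean went from 18.5 ± 4.2 to 8.65 ± 0.808 TPM (SD, n = 3), a ratio of 0.467, and the log2 fold change was -0.77 ± 0.161 (SE; limma adjusted p 0.00624), with a 95% interval of -1.15 to -0.39. GMDS was called lower under all 13 alternatives that were run, with log2 fold changes of -0.997 on TPM as deposited and -0.97 to -0.66 when 1 library was left out. In RNA from whole cultures, a lower level in each cell and fewer cells with the transcript cannot be told apart. AL035693.1, annotated antisense within GMDS, shares no exon base with it and was at 0.09 TPM or less in every library.

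The ratio of GMDS to GMDS-DT did not separate the groups. Within a library, GMDS exceeded GMDS-DT 8.38, 10.0 and 14.6 times in shCtrl and 9.38, 8.92 and 12.1 times in GMDS-AS1 KD. These ranges overlapped, and the mean log2 ratio differed by -0.09 (exact two-sided permutation test, p = 0.7). Since 3 libraries against 3 cannot give a p below 0.1, this test could not have passed the threshold whatever the values.

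GFUS, the epimerase and reductase that completes the de novo route, was by far the most abundant member. It was listed at 141.17, 142.45 and 130.54 TPM in shCtrl and 123.61, 128.06 and 130.13 TPM in GMDS-AS1 KD, so the deposited values of the knockdown libraries were all slightly lower, at a ratio of 0.922. Its log2 fold change was 0.13 ± 0.038 (SE, limma adjusted p 0.0238) with TMM scaling. It was -0.12 with TPM as deposited (limma adjusted p 0.0523) and 0.04 after scaling to the upper quartile (0.444), so neither direction held for all 3 scalings. The call of a higher level was lost when any library other than GMDS-AS1 KD replicate 1 was left out, with limma adjusted p of 0.0574, 0.053 and 0.121 without shCtrl replicates 1, 2 and 3, and 0.0635 and 0.0589 without GMDS-AS1 KD replicates 2 and 3.

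A ratio of both de novo enzymes within a library is free of the scaling. GMDS stood at 0.0985, 0.155 and 0.15 times GFUS in shCtrl and at 0.0667, 0.0634 and 0.0736 times GFUS in GMDS-AS1 KD. The ratio was lower in all 3 knockdown libraries, at 0.514 of the control value, a difference of -0.96 in the mean log2 ratio. The exact two-sided permutation test gave p = 0.1, the smallest that 20 assignments allow. In gene-level TPM, the transcript of GMDS was thus scarcer than that of GFUS in every library.

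**Figure D2:**
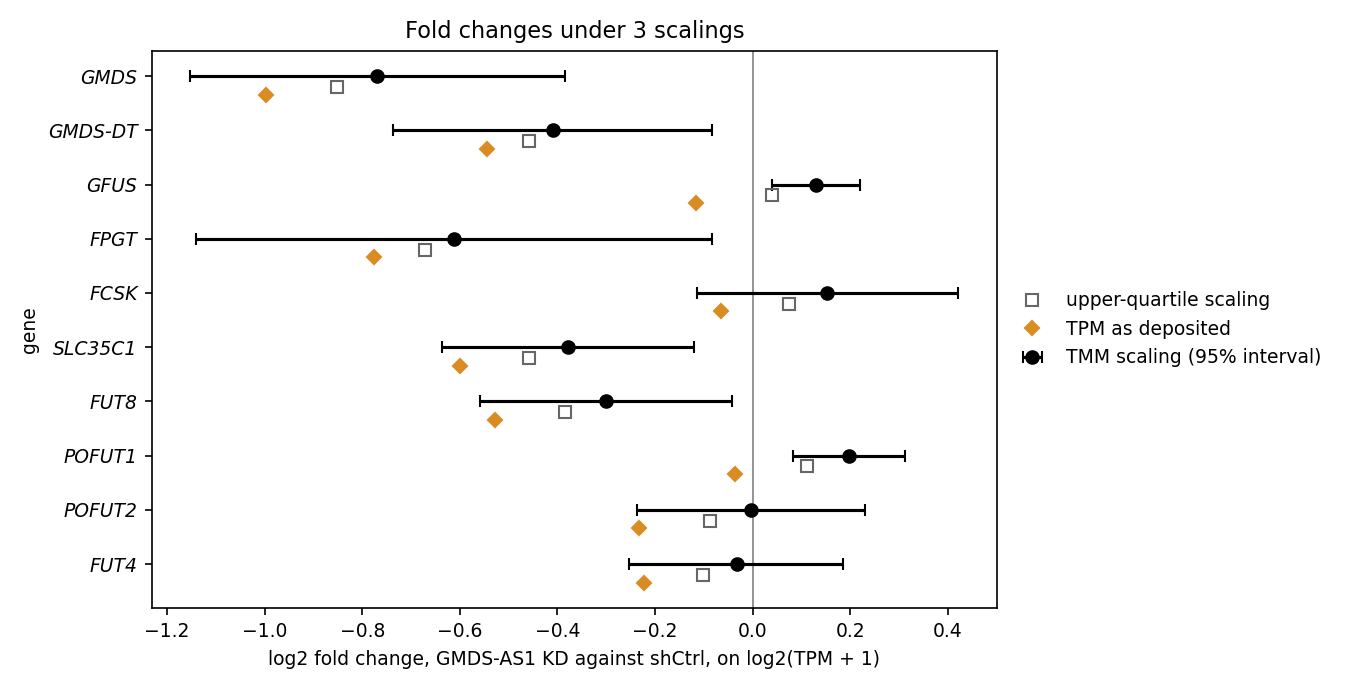
Log2 fold change of each member in GMDS-AS1 KD against shCtrl (horizontal axis, on log2(TPM + 1)) with TMM scaling (black, bars for the 95% interval), upper-quartile scaling (open squares) and TPM as deposited (orange). GMDS, GMDS-DT, FPGT, SLC35C1, FUT8, POFUT2 and FUT4 lie left of 0 under all 3 scalings (POFUT2 and FUT4 at -0.00 and -0.03 with TMM scaling), while GFUS, FCSK and POFUT1 change side.

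FCSK, the fucose kinase of the salvage route, overlapped between the groups. It was at 8.2, 7.88 and 6.31 TPM in shCtrl and at 7.96, 6.37 and 6.92 TPM in GMDS-AS1 KD. Its log2 fold change was 0.15 (limma adjusted p 0.29), with a 95% interval of -0.11 to 0.42, and it was -0.06 with TPM as deposited.

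FPGT, which forms GDP-fucose from fucose 1-phosphate (GENCODE v29, chr1:74198212-74234086, plus strand), had to be read together with the read-through gene FPGT-TNNI3K, with which it shares 453 exon bases on the same strand. FPGT alone was at 2.13, 4.46 and 2.67 TPM in shCtrl and 1.22, 1.72 and 1.07 TPM in GMDS-AS1 KD. FPGT-TNNI3K was at 1.8, 0.12 and 1.74 TPM in shCtrl and 0.2, 0.15 and 0.34 TPM in GMDS-AS1 KD. In shCtrl, the library with the highest FPGT value thus had the lowest read-through value. How reads of the shared exons were divided between both genes was not tested. FPGT alone had a log2 fold change of -0.61 ± 0.222 (SE; limma adjusted p 0.0528) and was not called, although it was called without shCtrl replicate 1 (0.0249) and without GMDS-AS1 KD replicate 2 (0.0474). The sum of both genes, an analysis chosen after the values were seen, was 3.93, 4.58 and 4.41 TPM in shCtrl and 1.42, 1.87 and 1.41 TPM in GMDS-AS1 KD. Its controls were closer together than those of FPGT alone, its log2 fold change was -0.87 ± 0.117 (SE), and its limma adjusted p was 0.000775. Set against the kinase, the summed level was 0.479 to 0.699 times FCSK in shCtrl and 0.178 to 0.294 times FCSK in GMDS-AS1 KD, without overlap (difference in mean log2 ratio -1.40, exact two-sided permutation p = 0.1).

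**Figure D3:**
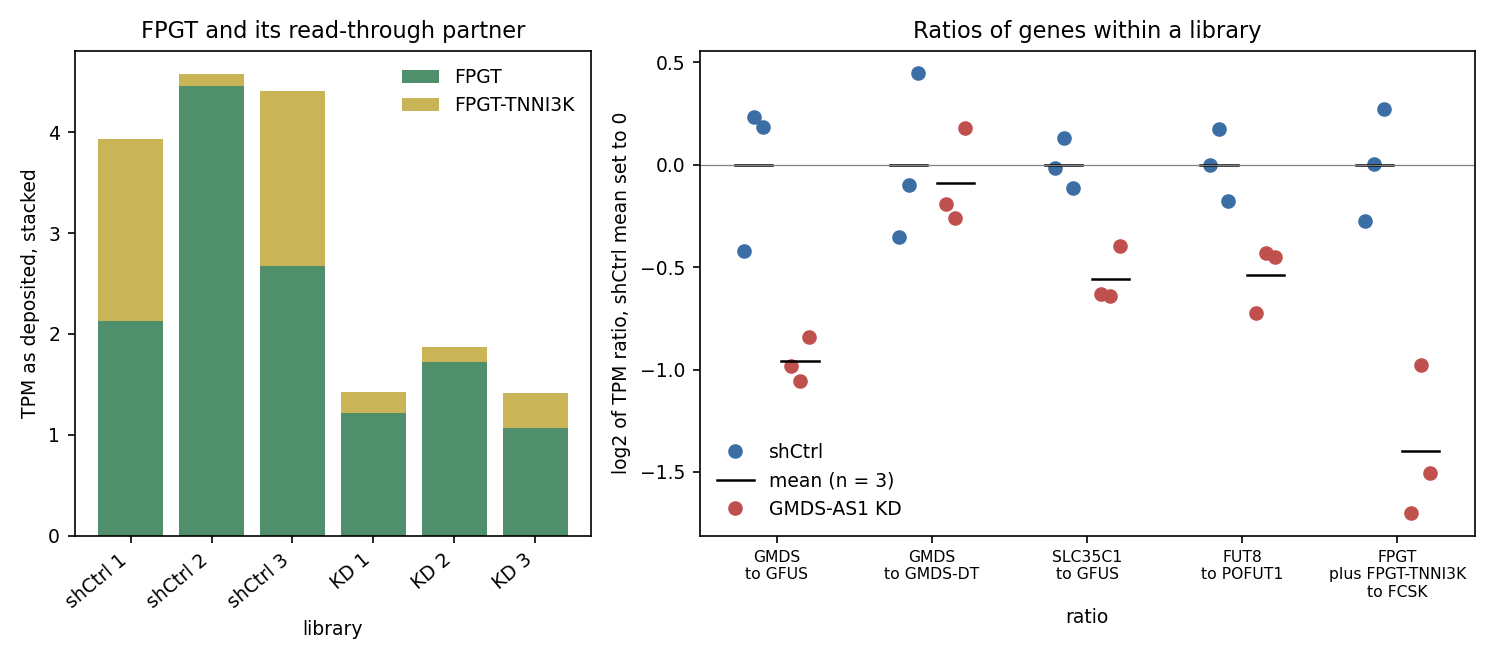
Left, stacked TPM as deposited of FPGT and FPGT-TNNI3K in each of the 6 libraries; the sum is 3.93 to 4.58 TPM in shCtrl and 1.41 to 1.87 TPM in GMDS-AS1 KD. Right, log2 of 5 ratios of genes within a library with the shCtrl mean set to 0, 1 point per library and a line for the mean; the groups overlap for GMDS to GMDS-DT and lie apart for the other ratios.

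SLC35C1, the Golgi transporter of GDP-fucose (chr11:45804072-45813015, plus strand), fell. It was at 10.59, 11.83 and 9.16 TPM in shCtrl and 6.06, 6.24 and 7.5 TPM in GMDS-AS1 KD. The groups did not overlap, and the mean changed from 10.5 ± 1.34 to 6.6 ± 0.785 TPM (SD, n = 3), a ratio of 0.627. Its log2 fold change was -0.38 ± 0.108 (SE; limma adjusted p 0.0225), and the direction was lower under all 13 alternatives. The call was lost without shCtrl replicate 2 (0.057), without GMDS-AS1 KD replicate 1 (0.0704) and without replicate 2 of that group (0.0652), and also without the filter on low genes (0.0652). Within a library it was 0.0702 to 0.083 times GFUS in shCtrl and 0.0487 to 0.0576 times GFUS in GMDS-AS1 KD (exact two-sided permutation p = 0.1).

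SLC35C1 was the member with a match to the shRNA seed. A short hairpin guide can pair through its seed with 3′ UTRs in the manner of a miRNA, so the site GATGGTA was looked for in the longest 3′ UTR of each of the 9 coding members. It occurred once, in the 1680-base 3′ UTR of SLC35C1 at chr11:45812322-45812346 including 9 bases on each side, and in none of the other 8. The same letters were present in the 3′ UTR of 7.3% of 19431 genes. The seed site of the opposite hairpin arm, GTGGTCT, was in no member and in 10.6% of all genes. A letter match does not show that the site was bound, and its part in the lower level was not tested. Capitals mark the seed site.
SLC35C1 site: ttgccttgtGATGGTAagacaccaa

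FUT8, which adds core fucose to N-glycans (chr14:65410592-65744121, plus strand), was at 13.97, 15.35 and 12.02 TPM in shCtrl and 8.09, 9.44 and 10.2 TPM in GMDS-AS1 KD. All 3 knockdown libraries were below the controls, at a ratio of means of 0.671. The log2 fold change of -0.30 ± 0.108 (SE) missed the threshold (limma adjusted p 0.0517), while it was -0.53 with TPM as deposited (0.00628) and -0.38 with upper-quartile scaling (0.0232), both of which passed. It also passed without shCtrl replicate 3 (0.0254) and without GMDS-AS1 KD replicate 3 (0.0488). FUT8-AS1 shares 824 exon bases with FUT8 on the opposite strand and was at 0.53 to 0.56 TPM in shCtrl and 0 to 0.32 TPM in GMDS-AS1 KD, and no source used here says that reads were counted by strand.

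POFUT1, which starts O-fucose glycans on EGF repeats (chr20:32207880-32238667, plus strand), was nearly level in the deposited values. It was at 18.17, 17.66 and 17.65 TPM in shCtrl and 17.4, 16.57 and 18.14 TPM in GMDS-AS1 KD, and the groups overlapped. With TMM scaling the log2 fold change was 0.20 ± 0.048 (SE; limma adjusted p 0.0119), after upper-quartile scaling it was 0.11 (0.0863), and the deposited TPM gave -0.04 (0.588). The call with TMM scaling was lost without shCtrl replicate 2 (0.0576). FUT8 was 0.681 to 0.869 times POFUT1 in shCtrl and 0.465 to 0.57 times POFUT1 in GMDS-AS1 KD, again without overlap (difference in mean log2 ratio -0.54, exact two-sided permutation p = 0.1). Of the 5 ratios compared, only that of GMDS to GFUS had been planned, and the 4 that separated the groups had a Benjamini-Hochberg adjusted p of 0.125, from the exact permutation tests.

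POFUT2, the O-fucosyltransferase of thrombospondin repeats (chr21:45263928-45287898, minus strand), was at 14.93, 15.96 and 14.25 TPM in shCtrl and 10.85, 13.14 and 14.12 TPM in GMDS-AS1 KD. The log2 fold change was -0.00 with TMM scaling (limma adjusted p 0.981; 95% interval -0.24 to 0.23) and -0.23 with TPM as deposited. FUT4, an alpha-1,3-fucosyltransferase (chr11:94543840-94549898, plus strand), was at 3.5, 3.97 and 3.52 TPM in shCtrl and 2.93, 3.2 and 2.85 TPM in GMDS-AS1 KD. Its log2 fold change was -0.03 (limma adjusted p 0.788; 95% interval -0.25 to 0.19), and -0.22 with TPM as deposited. For both genes the deposited values of the groups were apart and the scaled ones overlapped. FUT4 shares 683 exon bases with PIWIL4 on the same strand, which was at 0.27 to 0.95 TPM.

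GFUS led the order of the levels and GMDS-DT closed it in both groups. In shCtrl the means ran from GFUS (138.0 TPM) to GMDS (18.5), POFUT1 (17.8), POFUT2 (15.0), FUT8 (13.8), SLC35C1 (10.5), FCSK (7.46), FUT4 (3.66), FPGT (3.09) and GMDS-DT (1.74). The ranges of neighbours overlapped for GMDS and POFUT1, POFUT2 and FUT8, FUT4 and FPGT, and FPGT and GMDS-DT. In GMDS-AS1 KD, POFUT1 (17.4 TPM), POFUT2 (12.7) and FUT8 (9.24) came between GFUS (127.0) and GMDS (8.65), which was followed by FCSK (7.08), SLC35C1 (6.6), FUT4 (2.99), FPGT (1.34) and GMDS-DT (0.86). There the ranges of FUT8 and GMDS and of FCSK and SLC35C1 overlapped. The rank of GMDS next to GFUS in the shCtrl means rests on replicates 2 and 3, because in shCtrl replicate 1 GMDS (13.91 TPM) was already below POFUT1 (18.17), POFUT2 (14.93) and FUT8 (13.97).

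Of 17 other genes that use or remove fucose, 13 were tested, and 5 were called lower and 2 higher, beside 25.9% and 28.5% of all genes tested. Their median log2 fold change was -0.18. With TPM as deposited, 6 were lower and 1 higher, beside 6814 and 2756 of the 16901 genes tested. SLC35C2, a Golgi protein related to SLC35C1 and tied to Notch O-fucosylation, was at 29.01, 30.32 and 29.36 TPM in shCtrl and 10.74, 10.93 and 9.48 TPM in GMDS-AS1 KD. It fell by 1.19 on the log2 scale (SE 0.068; limma adjusted p 1.41e-05), and all 3 knockdown libraries were far below the controls. B3GLCT, which adds glucose to O-fucose on thrombospondin repeats, was at 3.72, 3.23 and 3.92 TPM in shCtrl and 1.09, 0.99 and 0.91 TPM in GMDS-AS1 KD (log2 fold change -1.05; limma adjusted p 0.000215). FUT1, the alpha-1,2-fucosyltransferase of the H antigen, was at 13.17, 12.19 and 10.81 TPM and then 6.31, 5.73 and 6.16 TPM (log2 fold change -0.66; limma adjusted p 0.0005).

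FUCA2, a secreted fucosidase, rose. It was at 25.13, 24.09 and 23.57 TPM in shCtrl and 32.72, 32.73 and 33.68 TPM in GMDS-AS1 KD, with a log2 fold change of 0.67 (limma adjusted p 1.68e-05). The 3 remaining called genes of this list changed by less than 1.5-fold on the log2(scaled TPM + 1) scale, which compresses low values. Among them LFNG, a sugar transferase that extends O-fucose and that is named after its values were seen, had means of 3.24 and 1.68 TPM, a ratio of 0.519. RFNG, also named after its values were seen, was called higher, with means of 34.2 and 31.7 TPM. Its log2 fold change was 0.135 with TMM scaling and -0.105 with TPM as deposited. Of the 4 genes too low to test, FUT5, FUT6, FUT7 and FUT9, none exceeded 0.31 TPM in any library. Of the 5 enzymes that supply GDP-mannose, the substrate of GMDS, 1 was called lower and 1 higher, beside 25.9% and 28.5% of all genes tested, and the median log2 fold change was 0.01. Neither change reached 1.5-fold with TMM scaling, while the lower one, PMM2, a phosphomannomutase named after its values were seen, was at a ratio of 0.608 in the deposited TPM. The higher one, GMPPB, likewise named after its values were seen, was at a ratio of 1.04 there. With TPM as deposited 3 of the 5 enzymes were lower and none higher, beside 6814 and 2756 of the 16901 genes tested.

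Among 10 proteins that receive O-fucose, 9 were tested, and 6 were called lower and 2 higher, beside 25.9% and 28.5% of all genes tested, and the median of their log2 fold changes was -0.48. The receptors went in different directions. NOTCH1 rose from 9.82 ± 0.435 to 14.3 ± 0.49 TPM (log2 fold change 0.73; limma adjusted p 6.96e-05), while NOTCH2 fell from 26.8 ± 1.77 to 9.97 ± 0.5 TPM (-1.11; 1.86e-05) and NOTCH3 from 14.4 ± 1.44 to 5.87 ± 0.349 TPM (-0.94; 0.000138; SD, n = 3 throughout). The Notch ligand JAG2 rose from 48.8 ± 0.455 to 109.0 ± 5.3 TPM (1.39; limma adjusted p 8.86e-07), whereas the ligand DLL4 fell from 3.29 ± 0.542 to 0.46 ± 0.114 TPM (-1.42; 0.000168). THBS1, a thrombospondin whose repeats are O-fucosylated by POFUT2, fell from 5.13 ± 0.506 to 0.583 ± 0.0723 TPM (-1.80; limma adjusted p 1.48e-05). These directions, and those of SLC35C2, B3GLCT, FUT1 and FUCA2 above, were the same under all 13 alternatives. LFNG, RFNG, PMM2 and GMPPB were not run under all of them.

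**Figure D4:**
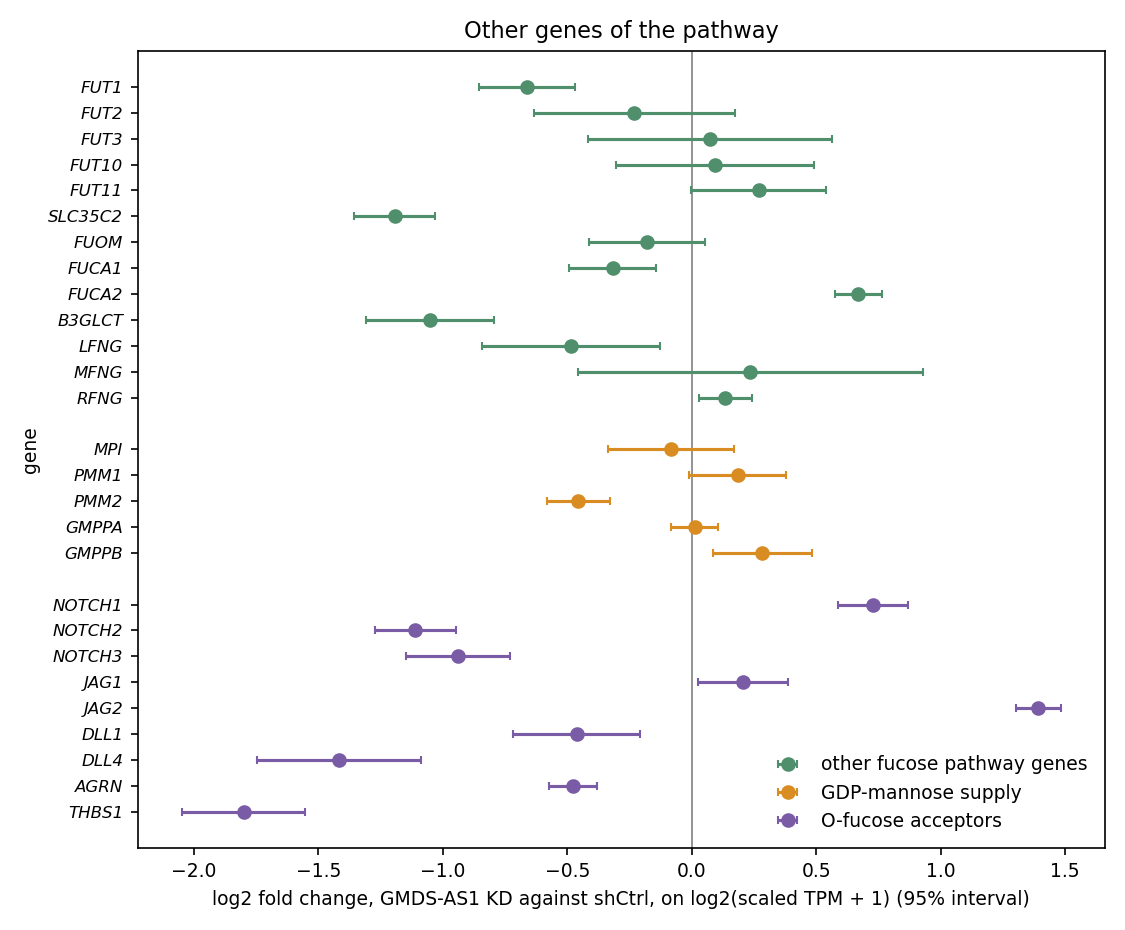
Log2 fold change in GMDS-AS1 KD against shCtrl (horizontal axis, on log2(scaled TPM + 1), bars for the 95% interval) of tested genes in the lists of other fucose pathway genes, GDP-mannose supply and O-fucose acceptors. THBS1 (-1.80), DLL4 (-1.42), SLC35C2 (-1.19) and NOTCH2 (-1.11) lie farthest to the left and JAG2 (1.39) farthest to the right.

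The genes around the GMDS locus were counted next. Within 1 Mb of the outer ends of the pair on chromosome 6, 56 other genes are annotated, of which 55 are listed and 21 were tested. Of these 21, 6 were called lower and 5 higher, near the shares of all genes tested (25.9% and 28.5%), and their median log2 fold change was -0.05. FOXC1, a forkhead transcription factor gene and the next gene beyond the 3′ end of GMDS, rose from a mean of 9.58 to 15.5 TPM (log2 fold change 0.87 ± 0.086 SE; limma adjusted p 0.000174). On the other side the next annotated gene, AL359852.1, was too low to test, at means of 0.12 and 0.067 TPM. The adjacent gene beyond GMDS was thus higher where GMDS itself was lower.

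Farther along the GMDS-DT side, SERPINB1, an inhibitor of neutrophil proteases, had the lowest log2 fold change of the region at -1.19 (limma adjusted p 1.44e-05; means 49.99 and 18.0 TPM), and RIPK1, a kinase of cell death signalling, was at -0.76 (0.000154). SERPINB9 (-0.45) and SERPINB9P1 (-0.47) also fell, and SERPINB6 (-0.12) and TUBB2A (-0.13) were called at small changes. WRNIP1 (0.51), PSMG4 (0.52) and the pseudogene HTATSF1P2 (0.84) rose, as did EXOC2 (0.17) on the FOXC1 side, whose log2 fold change was -0.06 with TPM as deposited. SERPINB9P1 lost its call without shCtrl replicate 1 (limma adjusted p 0.0538). EXOC2 lost it without shCtrl replicate 1 (0.141) or 2 (0.127) and without GMDS-AS1 KD replicate 1 (0.082) or 3 (0.089). SERPINB6 lost it without GMDS-AS1 KD replicate 1, 2 or 3 (0.0866, 0.0593 and 0.0545), and TUBB2A without replicate 2 or 3 of that group (0.0514 and 0.062).

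The tested genes whose profile over the 6 libraries was most like that of GMDS were MTHFS, SEL1L and HPS5, with root mean square distances of 0.0646, 0.0827 and 0.0915 on the log2 scale after centring each gene on its shCtrl mean. MTHFS, an enzyme of folate metabolism, was at 23.67, 35.29 and 30.16 TPM in shCtrl and 14.02, 14.07 and 16.76 TPM in GMDS-AS1 KD, with the same low first control as GMDS. For GMDS-DT they were ZNF675, CEP70 and ARG2, at distances of 0.0326, 0.0456 and 0.0594. ZNF675, a zinc finger gene, was at 3.92, 4.85 and 3.27 TPM and then 2.43, 2.44 and 2.05 TPM. Genes were compared where their mean TPM was at least 0.5 times that of the member. GMDS was not among the 3 genes nearest to GMDS-DT. GMDS-DT was too low under this rule to be compared with GMDS, so its absence there says nothing about its profile. The second control was the highest for both, as it was for every other member but FCSK and POFUT1.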

How the data were processed

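Poly-A selected RNA of HCT116 cells was sequenced as paired reads from 3 shCtrl and 3 GMDS-AS1 KD libraries. The authors deposited TPM per Ensembl gene and library, rounded, with no scaling between libraries. The processing notes name Trimmomatic 0.27, TopHat2 2.1.1 and GRCh38.p13, and the methods name Cufflinks 2.2.1 and RSEM 1.3.1 for expression. The annotation release is not given in the sources used here. For 2 genes with broken lines no value was read.

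Genes that reached 0.5 TPM in 3 or more libraries were tested. TMM factors were computed on TPM without weights (30% of log ratios and 5% of means trimmed), and log2(scaled TPM + 1) was fitted in R 4.3.3 by limma 3.58.1, using a variance trend and no replicate block. P-values were Benjamini-Hochberg adjusted over all genes tested, and the script was tested on simulated data. Ratios were compared with an exact permutation test (scipy 1.17.1). Positions and 3′ UTRs were taken from GENCODE 29 and promoters from RefSeq, and guide, target and primer sequences from the study's oligonucleotide list.

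Members and lists were chosen with earlier results of these data known. Every member is named. From the lists, genes past the threshold with at least a 1.5-fold change are named, at the locus those past the threshold or next to the pair, and as most alike the 3 nearest genes. Alternatives covered scaling, pseudocount, filter, variance trend, replicate block and leaving out each library.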

Additional observations from a re-analysis of the deposited data

How the results depend on the processing

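GMDS remained lower and past the threshold under every alternative run, with log2 fold changes of -0.97 to -0.66 when 1 library was left out. The count of members called lower was 3, and it was 5 with TPM as deposited or upper-quartile scaling, 1 without the filter, and 1 to 4 when 1 library was left out. The count called higher was 2, and it was 0 with TPM as deposited or upper-quartile scaling, 1 without the variance trend, and 0 to 2 when 1 library was left out. Of the 16901 genes tested, 6814 were lower and 2756 higher with TPM as deposited, and 5198 and 3974 with upper-quartile scaling. The share of all genes called under the other alternatives is not given here. Whether the counts and lost calls of the members there differ from those of all genes was therefore not tested. GMDS-DT kept its direction but lost its call without the filter (log2 fold change -0.39), with a group mean of at least 1 TPM (-0.41) and with the replicate block (-0.41, limma adjusted p 0.0518), and ranged from -0.52 to -0.30 when 1 library was left out. The direction reversed with TPM as deposited for GFUS (-0.12), FCSK (-0.064), POFUT1 (-0.036) and EXOC2 (-0.059). In that setting the median log2 fold change of all genes was -0.20. POFUT2 reversed without the filter (0.027) and ranged from -0.066 to 0.10, and FUT4 from -0.075 to 0.003, when 1 library was left out. The cause of these changes was not tested. The difference in the log2 ratio of GMDS to GFUS was -0.95 with 0.1 TPM added to both genes and -1.17 to -0.84 when 1 library was left out, where the smallest exact permutation p is 0.2.

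Across genes, same-numbered libraries hardly deviated together: the correlations of their deviations from the group means were 0.029, -0.038 and 0.014. The labels do not say whether same-numbered libraries were handled together. With the replicate block, 2 members were called lower and 2 higher, the calls of GMDS-DT, SLC35C1 (limma adjusted p 0.0567), EXOC2 (0.0576) and SERPINB6 (0.0708) were lost, and FPGT was called (0.0197). The block changed no other call among the members and the named genes that were run with it. LFNG, RFNG, PMM2 and GMPPB were not run with the block. The depth of each library is not known, so no counting interval is given for the low members GMDS-DT and FPGT.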
